A study of Mus musculus with 53 samples.

Results

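The CXC chemokines are small secreted proteins that attract leukocytes, and 8 of their genes were followed here in mouse bone marrow-derived macrophages (BMDMs) treated with IL-4. The genes Cxcl1, Cxcl2, Cxcl3, Cxcl9, Cxcl10, Cxcl14, Cxcl16 and Pf4 were taken by name, which gave 8 of the 23847 loci measured by RNA-seq. Of these, 7 reached 1 FPKM (mapped fragments for each kilobase of a transcript, scaled to those of its library) in at least 1 library and were tested among 11146 such loci. Cxcl3 did not exceed 0.637 FPKM and was left out of that fit. BMDMs came from bone marrow of C57BL/6 mice aged 8 to 12 weeks that were WT or carried a full-body deletion of Stat6 (Stat6-/-), and all were differentiated for 6 days in L929 supernatant, a source of macrophage colony-stimulating factor. They were sampled before treatment (0 h) or after 1, 3, 6 and 24 h with 20 ng/ml IL-4 or without it, which gave 18 groups and 53 libraries. WT groups held 4 libraries, except for 3 with IL-4 at 24 h, whose replicate 1 is not analysed here. Each Stat6-/- group held 2, so its spread is poorly known.

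IL-4 acts on macrophages through STAT6, a transcription factor, and turns them toward alternative polarization. The study asked which genes it induces and represses and whether STAT6 is required. Chemokines fall into families by the spacing of their first cysteines, and in the CXC family these are separated by a single residue. Cxcl1, Cxcl2 and Cxcl3 carry the ELR motif, bind Cxcr2 and attract neutrophils. Cxcl9 and Cxcl10 are interferon-inducible ligands of Cxcr3 and attract activated T cells and NK cells. Cxcl16 is made as a transmembrane protein that binds Cxcr6, acts as a scavenger receptor and can be shed by the proteases Adam10 and Adam17. Pf4 (Cxcl4) is best known from platelet granules and is also expressed by macrophages, and Cxcl14 is a homeostatic member of the family.

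The libraries were checked before these genes were examined. FPKM summed to between 385889 and 464915 per library, between 10017 and 10380 loci reached 1 FPKM, and relative depth ranged from 0.706 to 1.555 times that of the median library. Stat6 was at 58.7 to 90.6 FPKM in WT and at 14.3 to 24.0 FPKM in Stat6-/- libraries, so the groups did not overlap and reads of the gene remained in the knockout. All 6 macrophage markers were above 1 FPKM in every library, and their summed level was 2604 to 4469 FPKM. The summed markers of T and NK cells did not exceed 0.358 FPKM, those of B cells 0.727, of fibroblasts 1.15, of dendritic cells 1.47, of endothelium 3.83 and of mast cells and basophils 4.34. The 7 neutrophil markers in the files were not low. They reached 1 FPKM in every library and summed to 226 to 1088 FPKM. In bulk RNA, fewer cells of a type and less RNA per cell cannot be told apart.

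Of the 8 genes, 6 lay on chromosome 5 (mm10), in a pair of neighbourhoods. The first held the neutrophil-attracting ligands and Pf4, and the second the interferon-inducible ligands. Pf4 (90772435 to 90773383), Cxcl3 (90786103 to 90788090), Cxcl1 (90891245 to 90893115) and Cxcl2 (90903899 to 90905938) lay on the plus strand with gaps of 12.7, 103.2 and 10.8 kb. Cxcl9 (92321331 to 92328079) and Cxcl10 (92346639 to 92348889) lay on the minus strand 1415.4 kb further on, 18.6 kb apart. Cxcl14 (56288643 to 56296551) was on the minus strand of chromosome 13, and Cxcl16 (70454234 to 70459984) on the minus strand of chromosome 11. The genes have 3 to 5 exons in the GENCODE annotation. Cxcl2 and Cxcl3 share 61 stretches of 50 bases, which are 3.37% and 6.31% of their transcripts. The Cxcl16 locus shares 363 bases with the locus of Zmynd15 on the opposite strand. Of the 50-base stretches of Cxcl16 transcripts, 20.0% also occur in Zmynd15. That is more than 363 bases can hold, so these measures rest on different gene extents. The use of strand in counting was not given in the sources used here, so reads of the shared bases cannot be told apart. Art3 spans Cxcl10 but did not exceed 0.0687 FPKM.

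The proximal promoters of the 3 neutrophil-attracting ligands and of Cxcl10 are shown because these genes are the ones whose promoters held a match to the NF-kB consensus among the 7 found in the RefSeq promoter table (GRCm38.p6). Cxcl16 had no entry. NF-kB is a transcription factor family that drives chemokine genes in activated macrophages. Each sequence covers 110 bases upstream of the transcribed part and is written 5′ to 3′ on the gene's strand, with the NF-kB consensus match in capitals.
Cxcl1 (chr5:90891131-90891240, plus strand): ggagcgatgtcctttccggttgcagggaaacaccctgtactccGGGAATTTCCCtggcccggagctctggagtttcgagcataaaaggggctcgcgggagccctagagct
Cxcl2 (chr5:90903761-90903870, plus strand): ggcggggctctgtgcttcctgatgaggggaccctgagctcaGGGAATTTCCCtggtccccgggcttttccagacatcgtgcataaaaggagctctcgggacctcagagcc
Cxcl3 (chr5:90785991-90786100, plus strand): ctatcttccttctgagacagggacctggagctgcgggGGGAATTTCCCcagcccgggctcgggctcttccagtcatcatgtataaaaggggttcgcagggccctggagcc
Cxcl10 (chr5:92348890-92348999, minus strand): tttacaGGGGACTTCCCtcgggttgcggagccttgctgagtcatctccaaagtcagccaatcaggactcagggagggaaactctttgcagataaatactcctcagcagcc

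The capitals are the same 11 letters in the 3 neutrophil-attracting genes, GGGAATTTCCC. In Cxcl1 and Cxcl2 the shared run extends to 14 letters, GGGAATTTCCCTGG. The capitals span bases -71 to -61 before the RefSeq start in Cxcl1, -97 to -87 in Cxcl2, -73 to -63 in Cxcl3 and -104 to -94 in Cxcl10, and each holds 2 overlapping matches. Cxcl10 had another match at -159 to -150. Both strands of the 250 upstream bases were searched, and 7.25% of 32851 promoters held the NF-kB consensus. The interferon response element TTTCNNTTTC, held by 2.98% of promoters, was found in Cxcl10 (-213 to -204) and Cxcl14. TGANTCA, the AP-1 letters, was found in Cxcl10 at -74 to -68, within the sequence shown, and in 6.75% of promoters. The STAT letters TTCNNNGAA were found in Cxcl14 only, against 7.02% of promoters, and TTCNNNNGAA, the spacing preferred by STAT6, in none of the 7, against 5.85%. Pf4 and Cxcl9 held none of the 5 motifs. A match is a description of these letters, and no binding was measured here.

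Pf4 and Cxcl16 dominated the chemokine mRNA of resting WT cells. FPKM is per length of transcript, so levels may be compared between genes. At 0 h, Pf4 was at 207 ± 35.1 FPKM (SD, n = 4), Cxcl16 at 116 ± 21.2, Cxcl10 at 41.3 ± 16.5 and Cxcl2 at 4.97 ± 1.43 FPKM, and these 4 did not overlap between neighbours in the order. Cxcl14 (0.833 ± 0.456 FPKM), Cxcl9 (0.581 ± 0.192) and Cxcl1 (0.569 ± 0.210) overlapped with their neighbours in that order, and Cxcl3 was lowest at 0.206 ± 0.0815 FPKM. The lowest share that Pf4, Cxcl16 and Cxcl10 together held of the summed FPKM of the 8 genes in any library was 97.2%.

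**Figure D1:**
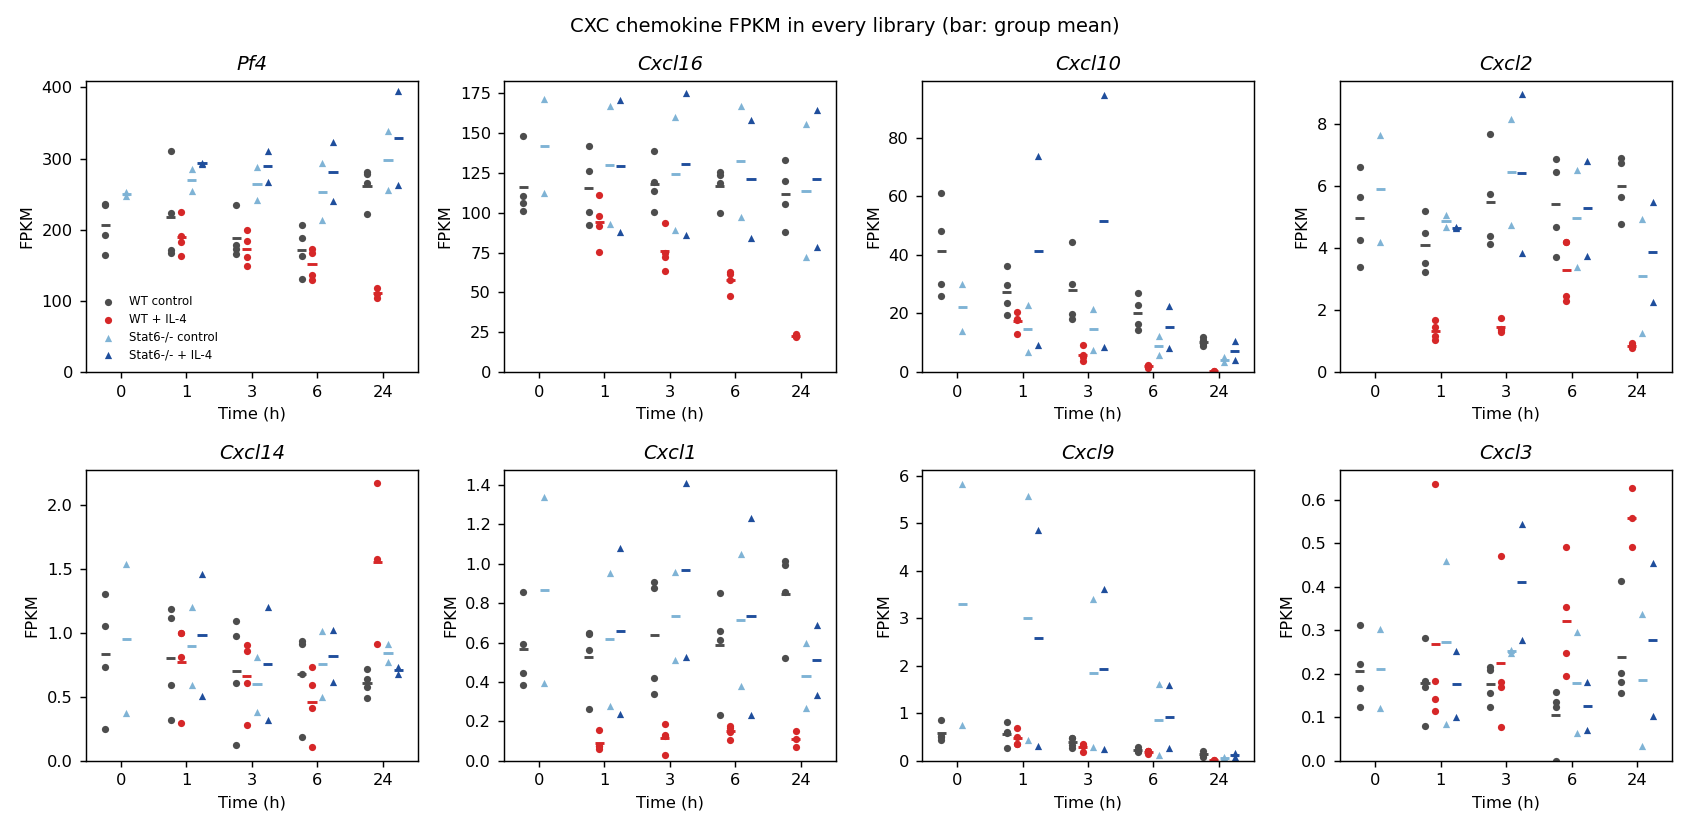
FPKM of each of the 8 CXC chemokines in every library (points) against time in hours, by genotype and treatment, with group means as bars and a linear axis that differs between panels. In WT, Cxcl10 with IL-4 fell to 0.159 to 0.296 FPKM at 24 h against 8.93 to 11.8 FPKM in controls, and Cxcl16 to 22.2 to 23.8 FPKM against 88.0 to 133 FPKM.

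Cxcl10 showed the deepest decrease. It was lower with IL-4 than in the control of the same replicate number in 15 of 15 WT pairs. At 1 h the 4 controls were at 23.4, 19.5, 29.6 and 36.3 FPKM and the 4 IL-4 libraries at 17.7, 13.1, 20.5 and 17.9998 FPKM, and the groups overlapped. At 3 h the controls were at 18.03, 19.9, 30.2 and 44.4 FPKM and the IL-4 libraries at 5.10, 3.73, 5.81 and 9.16 FPKM. From 3 h on, every IL-4 library lay below every control. At 6 h they were at 16.3, 14.5, 23.0 and 27.0 FPKM against 1.51, 1.97, 1.95 and 2.57 FPKM with IL-4. At 24 h the controls held 9.59, 8.93, 11.8 and 10.96 FPKM, and the 3 IL-4 libraries 0.285, 0.159 and 0.296 FPKM. The ratio of means, control over IL-4, was 1.57, 4.73, 10.1 and 41.9 in order of time. On the log2(FPKM + 1) scale, which understates the change of low genes, the difference was -0.60 at 1 h (SE 0.50, limma adjusted p 0.569). It was -2.04 at 3 h (SE 0.50, adjusted p 0.00138), -2.79 at 6 h (SE 0.50, adjusted p 1.54e-05) and -3.18 at 24 h (SE 0.54, adjusted p 5.18e-06).

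Among the neutrophil-attracting ligands, Cxcl2 fell as early as 1 h. The 1 h controls were at 3.52, 3.23, 5.19 and 4.49 FPKM and the IL-4 libraries at 1.67, 1.46, 1.04 and 1.17 FPKM, a log2 difference of -1.12 (SE 0.26, adjusted p 0.00212). Every IL-4 library lay below every control. Leaving out replicate number 3 from all WT groups brought this to -0.96 (adjusted p 0.0779). At 3 h, controls of 4.12, 4.39, 5.73 and 7.66 FPKM stood against 1.36, 1.28, 1.38 and 1.75 FPKM, a log2 difference of -1.38 (adjusted p 5e-05). At 6 h the controls were at 4.69, 3.70, 6.45 and 6.85 FPKM and the IL-4 libraries at 2.47, 4.202, 2.28 and 4.197 FPKM. The groups overlapped there, and the log2 difference of -0.59 missed the threshold (adjusted p 0.0671). At 24 h, controls of 4.77, 6.89, 6.72 and 5.65 FPKM stood against 0.872, 0.763 and 0.935 FPKM, with a ratio of means of 7.02 and a log2 difference of -1.91 (SE 0.28, adjusted p 4.19e-07). The 6 h difference did not itself differ from that at 3 h (change in log2 difference 0.79, adjusted p 0.353), whereas the 24 h difference was deeper than that at 6 h (-1.32, adjusted p 0.00794). Without replicate number 2 in all WT groups, this last change was -1.02 (adjusted p 0.154).

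Cxcl1, the neighbour of Cxcl2, was lower with IL-4 in 15 of 15 WT pairs at levels near or below 1 FPKM. At 1 h the controls were at 0.560, 0.263, 0.648 and 0.642 FPKM and the IL-4 libraries at 0.157, 0.0614, 0.0750 and 0.0775 FPKM. At 24 h they were at 1.01, 0.524, 0.992 and 0.857 FPKM against 0.153, 0.109 and 0.0712 FPKM. The groups did not overlap at any of the 4 times, and the ratios of means, control over IL-4, were 5.70, 5.40, 3.93 and 7.63 in order of time. On the log2(FPKM + 1) scale the differences stayed under 2-fold, at -0.48 (adjusted p 0.103), -0.53 (0.0225), -0.45 (0.0441) and -0.72 (0.00209). Cxcl1 reached 1 FPKM in 6 libraries, none of them WT with IL-4. It thus passed the filter through groups where it was high, and these differences are given as a description. Without the filter, the limma adjusted p at 6 h was 0.0684. The 3 h difference missed the threshold in 6 of 12 leave-outs (IL-4 replicate 2, control replicate 3 or 4, and WT replicate number 1, 3 or 4), with adjusted p up to 0.185. The 6 h difference missed it in 10 of 12, all but those of control replicate 2 and WT replicate number 2, with adjusted p up to 0.226. With Tukey's adjustment the values at 3, 6 and 24 h were 0.25, 0.504 and 0.0525. With a pseudocount of 0.1 FPKM they were -1.67 (adjusted p 0.00757), -1.72 (0.0021), -1.37 (0.0107) and -2.15 (0.000223). At these levels 1 FPKM of pseudocount exceeds the signal, so the size of the Cxcl1 change depends on this choice.

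Cxcl3 did not follow its neighbours. At 6 h the WT controls were at 0, 0.124, 0.136 and 0.158 FPKM and the IL-4 libraries at 0.491, 0.195, 0.354 and 0.248 FPKM. At 24 h the controls were at 0.413, 0.180, 0.202 and 0.155 FPKM against 0.492, 0.627 and 0.557 FPKM with IL-4. Every IL-4 library lay above every control at both times, and Cxcl3 was lower with IL-4 in 3 of 15 WT pairs. With every locus tested and a pseudocount of 0.1 FPKM, a setting chosen after seeing the data, the log2 differences were 1.08 at 6 h (adjusted p 0.0552) and 1.02 at 24 h (adjusted p 0.0788).

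Cxcl16, the transmembrane member, fell by 6 h and further by 24 h. At 3 h the WT controls were at 139, 119, 113 and 100.3 FPKM and the IL-4 libraries at 93.7, 74.7, 72.3 and 63.7 FPKM. At 6 h, controls of 125, 123, 118 and 99.6 FPKM stood against 62.8, 57.7, 61.8 and 47.8 FPKM. At 24 h, controls of 133, 105, 120 and 88.0 FPKM stood against 22.9, 22.2 and 23.8 FPKM. The groups did not overlap from 3 h on, and the ratio of means rose from 1.23 at 1 h to 1.55, 2.03 and 4.86. The log2 differences were -0.29 (adjusted p 0.616), -0.63 (adjusted p 0.0623), -1.01 (SE 0.26, adjusted p 0.00149) and -2.22 (SE 0.28, adjusted p 1.78e-08). The 6 h value sits at the 2-fold limit, and 5 of the leave-outs brought it to between -0.93 and -0.999. These left out replicate 4 of the IL-4 libraries, replicate 1 or 2 of the controls, or replicate number 2 or 4 of WT. The overlapping gene Zmynd15 also fell, by 1.13 on the log2 scale at 6 h (adjusted p 0.00176), with a difference of -1.80 at 24 h (adjusted p 9.74e-06), and was at 0.576 to 11.3 FPKM over all libraries. Of the proteases that shed Cxcl16, Adam10 was at 34.0 ± 0.636 FPKM with IL-4 at 24 h (SD, n = 3) against 35.1 ± 2.64 (n = 4) in controls. Adam17 was at 62.3 ± 1.83 against 86.4 ± 3.51 FPKM, a log2 difference of -0.46 (adjusted p 0.00749) that was under 2-fold. Cxcr6, the receptor of Cxcl16, averaged no more than 0.253 FPKM in any group.

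Pf4 fell late. Its log2 differences at 1, 3 and 6 h lay between -0.17 and -0.11 (adjusted p 0.688, 0.704 and 0.434). At 24 h the WT controls were at 222.7, 280.6, 278.9 and 265.8 FPKM and the IL-4 libraries at 104.5, 109.8 and 118.5 FPKM. The groups did not overlap, the ratio of means was 2.36 and the log2 difference was -1.23 (SE 0.18, adjusted p 4.48e-07). The 24 h difference was deeper than the 6 h difference by -1.06 (adjusted p 0.0011), and by -0.99 without replicate 4 of the 6 h IL-4 libraries and -0.93 without replicate 1 of the 6 h controls. Since Pf4 is a platelet gene, 8 other megakaryocyte and platelet markers were summed. They came to 3.55 to 4.35 FPKM in WT controls and to 3.13 to 3.39 FPKM with IL-4 at 24 h, far under the level of Pf4. Gp6, Gp1bb and Gp9 were at 0 in 27, 22 and 10 of the 53 libraries, and Itga2b, Gp1ba, Ppbp and Treml1 in none. Treml1 (0.806 to 3.75 FPKM) and Ppbp (0.265 to 2.87 FPKM) reached 1 FPKM in 50 and 24 libraries. These 2 were tested and neither was called.

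The late changes were accompanied by other shifts at 24 h. The 7 neutrophil markers in the files summed to 454 to 631 FPKM in WT controls and to 226 to 328 FPKM with IL-4, and 2 of them, Camp (log2 difference -1.02) and S100a8 (-1.20), were called lower. Among the 6 macrophage markers, Emr1, Fcgr1 and Mertk were called lower at 24 h (-1.20, -2.34 and -1.89). Csf1r (-0.61) stayed under 2-fold, and Cd68 went the other way (0.16, limma adjusted p 0.282). Itgam, the remaining marker, was at 156 to 600 FPKM over all libraries, and its change is not given here. Over all loci, 4.58% were called lower at 24 h. The part of these shifts in the chemokine values was not tested.

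Cxcl14 was higher with IL-4 at 24 h, under 2-fold on the log2 scale and with a p that depended on single libraries. Controls of 0.577, 0.718, 0.642 and 0.49296 FPKM stood against 2.17, 1.57 and 0.915 FPKM in IL-4 libraries 2 to 4, and the groups did not overlap. The log2 difference was 0.64 (SE 0.25, adjusted p 0.0276), and with a pseudocount of 0.1 it was 1.16 (adjusted p 0.0873). It missed the threshold in 6 of 11 leave-outs, with values of 0.47 to 0.63 and adjusted p up to 0.193. These left out IL-4 replicate 2 or 3, control replicate 4, or WT replicate number 1, 2 or 3. Tukey's adjustment gave 0.391. Replicate 4 was the lowest WT library for Cxcl14 in 9 of 9 groups. At 1, 3 and 6 h the log2 differences lay between -0.19 and -0.01, and the groups overlapped.

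Cxcl9 did not exceed 0.863 FPKM in any WT library, and no test separated the treatments. Controls at 24 h were at 0.112, 0.0781, 0.216 and 0.126 FPKM, and the IL-4 libraries at 0, 0.0152 and 0.0196 FPKM. In the step of FPKM that 1 fragment is worth, these last values correspond to 0, 2 and 2 fragments, so no fold is given. The log2 difference was -0.16 with a 95% interval from -1.02 to 0.70 (adjusted p 0.77).

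Counted by a single rule, an adjusted p below 0.05 and at least 2-fold (called), the WT response took in 1 of the 7 tested chemokines at 1 h (Cxcl2), 2 at 3 h (Cxcl10 and Cxcl2), 2 at 6 h (Cxcl10 and Cxcl16) and 4 at 24 h (Cxcl10, Cxcl16, Cxcl2 and Pf4). All of these calls were decreases. Over all 11146 loci, 1.49%, 3.88%, 5.54% and 8.50% were called at these times, and 0.395%, 1.27%, 2.36% and 4.58% were called lower. The median log2 difference of the 7 genes was -0.29, -0.53, -0.45 and -1.23, and that of all loci did not leave the range from -0.07 to 0.01. Between consecutive times, the response of 3 genes deepened from 6 to 24 h (Cxcl16, Cxcl2 and Pf4), where 6.06% of loci changed. The changes of Cxcl16 from 6 to 24 h passed the 2-fold limit at -1.21 (adjusted p 0.0145), and adjusted p was 0.0706, 0.0902 or 0.141 without WT replicate number 1, 2 or 3. None was called from 1 to 3 h, where 1.61% of loci were called and Cxcl10 changed by -1.43 (adjusted p 0.222), or from 3 to 6 h, with 0.449%.

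**Figure D2:**
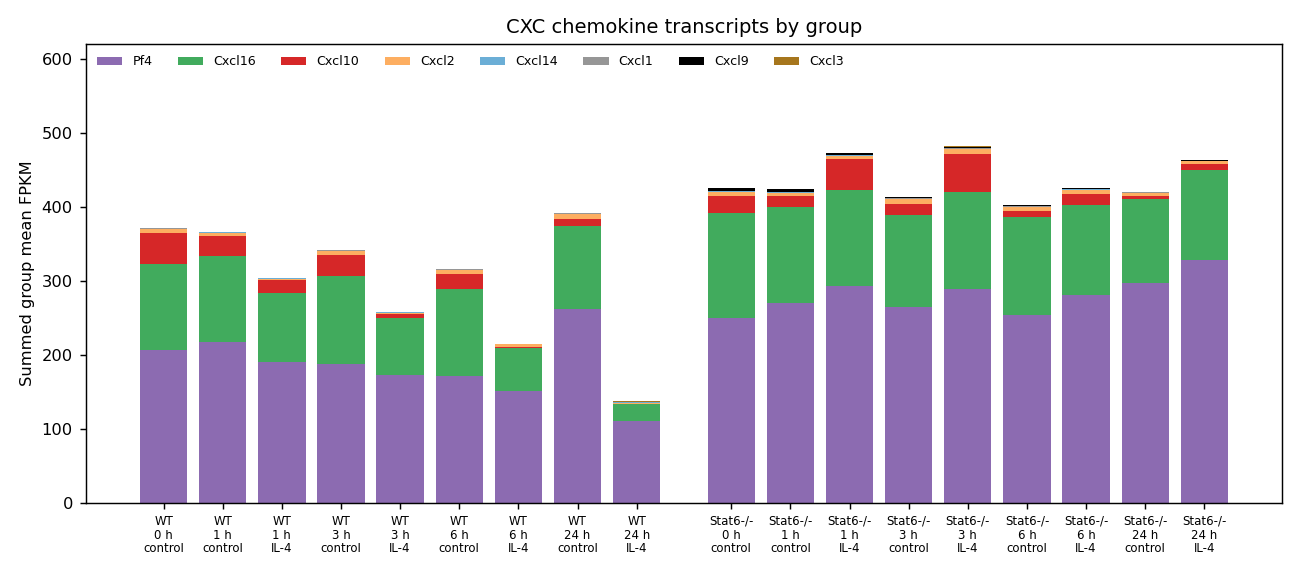
Stacked bars of group mean FPKM for the 8 CXC chemokines in each of the 18 groups, on a linear axis from 0. In WT at 24 h the sum was 392 FPKM in controls and 137 FPKM with IL-4, and in Stat6-/- 420 and 463 FPKM.

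Together the 8 genes summed to 392 ± 23.7 FPKM in WT controls (SD, n = 4) and to 137 ± 7.07 FPKM with IL-4 (n = 3) at 24 h, and the mixture changed with the amount. The share of Pf4 went from 66.8% to 80.8%, that of Cxcl16 from 28.5% to 16.7% and that of Cxcl10 from 2.64% to 0.179%. After 24 h of IL-4 the order in WT was Pf4 (111 FPKM), Cxcl16 (22.9), Cxcl14 (1.55), Cxcl2 (0.857), Cxcl3 (0.559), Cxcl10 (0.247), Cxcl1 (0.111) and Cxcl9 (0.0116). Cxcl14 and Cxcl2 overlapped between libraries. Cxcl10 had moved from the third place at 0 h to the sixth.

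None of these decreases was called in Stat6-/- BMDMs. Across all loci 0% were called with IL-4 at 1, 3, 6 or 24 h or in the mean of the 4 times in limma, with 51, 131, 88, 37 and 137 loci at an unadjusted p below 0.05, so the count of 0 chemokines is the same as the background. At 24 h, Cxcl16 was at 72.0 and 155 FPKM in controls and at 78.5 and 164 FPKM with IL-4, Cxcl2 at 4.93 and 1.27 against 5.47 and 2.25 FPKM, and Pf4 at 338.9 and 255.7 against 394.5 and 263.2 FPKM. Each value is given for replicates 1 and 2 in this order, and each gene was higher with IL-4 in both. The log2 differences were 0.10 for Cxcl16 (95% interval -0.64 to 0.84), 0.32 for Cxcl2 (-0.42 to 1.06) and 0.13 for Pf4 (-0.35 to 0.61).

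The difference between genotypes was tested directly as the WT response minus the Stat6-/- response. The replicate number as a block is given beside it, since same-numbered Stat6-/- libraries deviated together. No chemokine was called at 1 h, 1 was called at 3 and at 6 h (Cxcl10) and 4 at 24 h (Cxcl10, Cxcl16, Cxcl2 and Pf4), all with the deeper decrease in WT. Over all loci 1.25%, 3.48%, 4.41% and 6.85% were called at these times, and 3.51% were called lower at 24 h. With the replicate block, 2 chemokines were called at 1 h, Cxcl10 (-1.63, adjusted p 0.0191) and Cxcl2 (-1.07, adjusted p 0.0282). At 3 h the block also gave 2, Cxcl10 (-3.14, adjusted p 1.33e-06) and Cxcl2 (-1.32, adjusted p 0.00169). The shares of loci above are from the fit without the block, so these block counts have no background beside them. At 24 h the difference in log2 response was -3.73 for Cxcl10 (SE 0.89, adjusted p 0.0015), -2.32 for Cxcl16 (SE 0.46, adjusted p 0.000185), -2.23 for Cxcl2 (SE 0.46, adjusted p 0.000325) and -1.36 for Pf4 (SE 0.30, adjusted p 0.000653). These 4 were called with any single library or replicate number left out. The other genes did not pass: Cxcl1 differed by -0.80 (adjusted p 0.0613), Cxcl14 by 0.75 (0.171) and Cxcl9 by -0.26 (0.818).

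**Figure D3:**
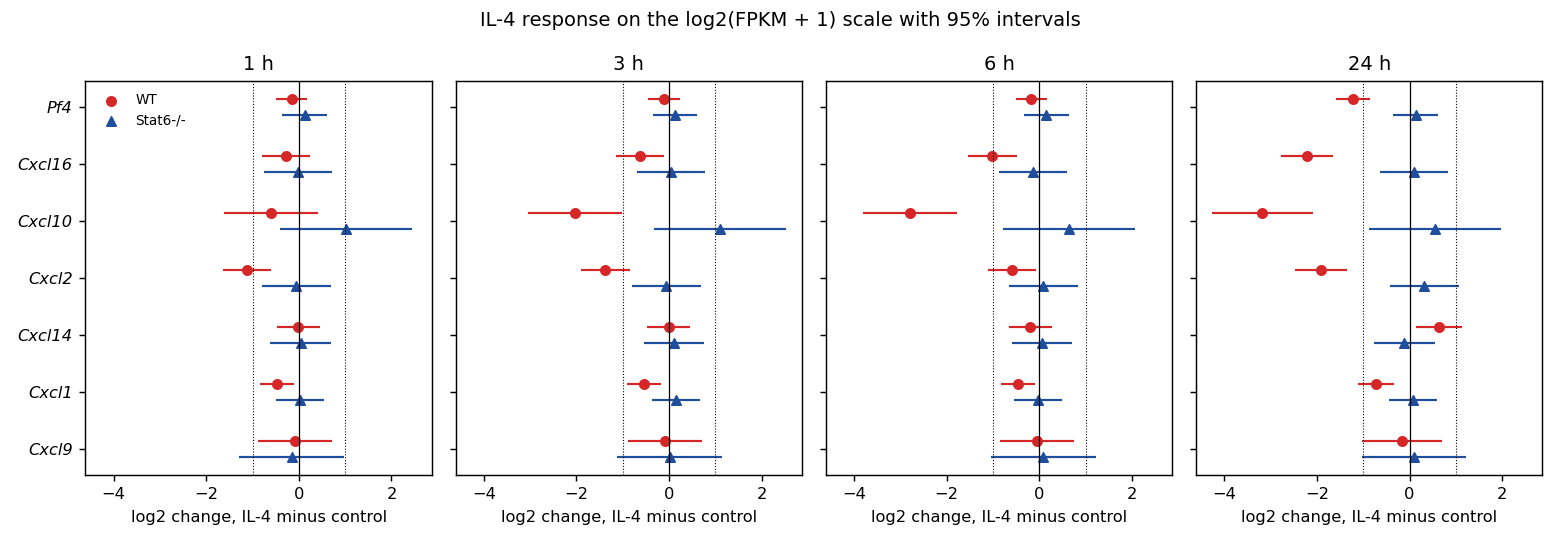
Log2 difference of IL-4 against the time-matched control for the 7 tested CXC chemokines at 1, 3, 6 and 24 h in WT and Stat6-/-, on the log2(FPKM + 1) scale, with 95% intervals from the limma fit and dotted lines at 2-fold. At 24 h the WT intervals of Cxcl10 (-4.27 to -2.09), Cxcl16 (-2.78 to -1.65), Cxcl2 (-2.47 to -1.34) and Pf4 (-1.59 to -0.86) lay below 0. The Stat6-/- intervals of Cxcl10, Cxcl16, Cxcl2 and Pf4 spanned 0.

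The Cxcl10 difference at earlier times depended on single libraries but was called without either whole Stat6-/- replicate. It was -3.14 at 3 h (SE 0.86, adjusted p 0.0108) and -3.43 at 6 h (adjusted p 0.00377). Without the whole of Stat6-/- replicate 2 these were -2.17 (adjusted p 0.011) and -3.22 (adjusted p 0.000135), and without replicate 1 they were -4.11 and -3.64. Without the IL-4 library of replicate 2 alone, its control kept, they became -1.47 (adjusted p 0.365) at 3 h and -2.74 (adjusted p 0.0557) at 6 h. The 3 h value was -4.80 without replicate 1 of the same group, -2.45 (adjusted p 0.139) without replicate 1 of the Stat6-/- controls and -3.09 (adjusted p 0.0657) without WT replicate number 3. When only the groups compared entered the fit, its adjusted p was 0.108.

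In Stat6-/- cells the Cxcl10 values lay above their controls rather than below. In replicate 1 the level with IL-4 was 9.22, 8.51, 8.15 and 3.96 FPKM at 1, 3, 6 and 24 h, against 6.73, 7.68, 5.82 and 3.47 FPKM in controls. In replicate 2 it was 73.6, 94.6, 22.6 and 10.6 FPKM against 22.7, 21.7, 12.2 and 4.99 FPKM. IL-4 was thus the higher in 8 of 8 pairs, by 1.11 to 4.36 times. These pairs are 2 replicate numbers followed over 4 times, so they are not 8 separate observations. The share of all loci that were higher in 8 of 8 pairs is not given here. At each time alone the 95% interval of the log2 difference spanned 0, as at 24 h (0.55, -0.88 to 1.98). Averaged over the 4 times the log2 difference was 0.83 (95% interval 0.12 to 1.54, adjusted p 1), and it was not called. With the replicate number as a block its adjusted p was 0.0257, still under 2-fold, and without replicate 1 it was 1.38 (adjusted p 0.00443). Pf4 was also higher in 8 of 8 pairs, by 1.03 to 1.16 times.

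**Figure D4:**
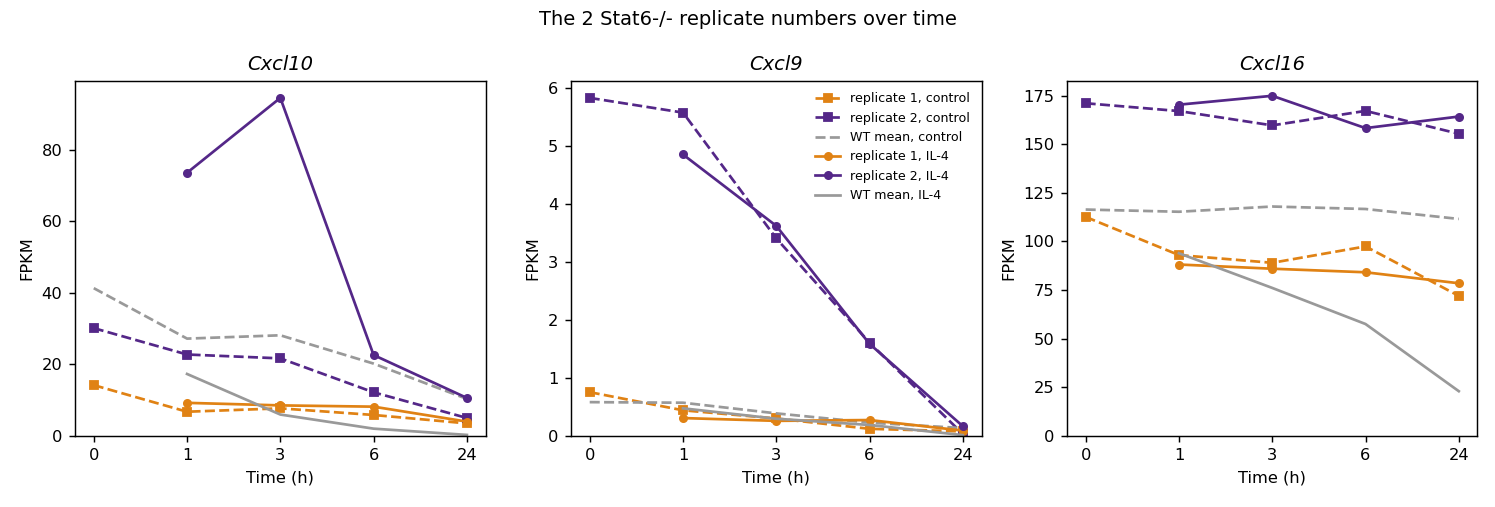
FPKM of Cxcl10, Cxcl9 and Cxcl16 in the Stat6-/- replicates 1 and 2 against time in hours (dashed, control; solid, IL-4), with WT group means in grey. Replicate 2 was the higher in 9 of 9 groups for Cxcl10 and Cxcl16 and in 8 of 9 for Cxcl9.

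The 2 Stat6-/- replicates differed in several chemokines throughout the time course. Replicate 2 was higher than replicate 1 in 9 of 9 groups for Cxcl10 (median ratio 2.77, range 1.44 to 11.1) and Cxcl16 (median ratio 1.88), and in 8 of 9 for Cxcl9 (median ratio 11.4). Cxcl9 in controls was at 0.753 and 5.83 FPKM at 0 h, 0.440 and 5.58 at 1 h, 0.299 and 3.41 at 3 h, 0.120 and 1.61 at 6 h and 0.0758 and 0.0308 at 24 h in replicates 1 and 2. Cxcl1 and Cxcl3 were higher in replicate 1 in 9 of 9 groups, Cxcl1 with a median ratio of 0.362. Of 19 tested interferon signalling genes, 14 (73.7%) were higher in replicate 2 in 9 of 9 groups, against 15.6% of the 11146 loci. Irf7, a transcription factor induced by interferon, had a median ratio of 7.91. The part of this difference between replicates in the genotype comparisons was not tested beyond the values without each replicate.

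Without IL-4, the mean level of Cxcl10 was lower in Stat6-/- than in WT. At 0 h it was at 14.2 and 30.1 FPKM against 25.9, 29.9, 48.2 and 61.3 FPKM in WT. No chemokine was called at any single time, where 0.350% (0 h), 0.260% (1 h), 0.126% (3 h), 0.0449% (6 h) and 0.0269% (24 h) of loci were. In the mean of the 5 control times, 0.287% of loci and 1 chemokine were called, Cxcl10 with a log2 difference of -1.02 (SE 0.27, adjusted p 0.00564). This call sits on the 2-fold limit. It was -0.97 to -0.99 without the WT control replicate 4 of 0, 1, 3 or 6 h and -0.86 to -0.98 without the Stat6-/- control replicate 1 of any time. Without a whole replicate number it was -0.95 (WT 3), -0.87 (WT 4), -0.48 (Stat6-/- 1) and -1.56 (Stat6-/- 2). Pf4 was higher in Stat6-/- by 0.37 (SE 0.09, adjusted p 0.00269), and by 0.25 without Stat6-/- replicate 1 (adjusted p 0.0786). Cxcl9 reached 1 FPKM in 7 libraries, all of Stat6-/- replicate 2, so it passed the filter through the group where it was high and its difference of 0.66 is given as a description. Without Stat6-/- replicate 2 it was -0.05. The other 4 tested chemokines differed by -0.09 to 0.10. The fit took the 5 control times of the same 2 Stat6-/- replicate numbers as separate libraries. Same-numbered Stat6-/- libraries deviated together (mean r 0.714 over all pairs of groups). The p-values of these means therefore treat linked libraries as independent.

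Cxcl10 also fell with time in culture without IL-4. WT controls went from 41.3 ± 16.5 FPKM (SD, n = 4) at 0 h to 10.3 ± 1.31 FPKM (n = 4) at 24 h, a log2 difference of -1.83 (SE 0.50, adjusted p 0.00945), and the groups did not overlap. It was the 1 chemokine called, among 1.13% of loci. Leaving out any WT replicate number gave -1.64 to -1.99 with adjusted p 0.0521 to 0.0962. In Stat6-/- the values went from 14.2 and 30.1 FPKM to 3.47 and 4.99 FPKM, a log2 difference of -2.07 (adjusted p 0.159), where 0.161% of loci and no chemokine were called. With the replicate block, Cxcl10 (adjusted p 0.000143) and Cxcl9 were called in Stat6-/-. Cxcl9 passed the filter through Stat6-/- replicate 2, where it was high at 0 h, so its call is a description. The share of loci called with the block is not given here. At 1, 3 and 6 h against 0 h no chemokine was called. Of all loci, 0%, 0.00897% and 0.0179% were called in WT and 0% each in Stat6-/-, with 1306 loci at an unadjusted p below 0.05 for WT at 1 h and 494, 434 and 267 for Stat6-/-. The IL-4 effects above were therefore read against controls of the same time.

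Across the 53 libraries, the genes whose log2 values followed each chemokine most closely were found by Pearson's r over 10320 loci, as a description of groups that share treatments and libraries. Cxcl10 was nearest to Cd69 (0.93), an early activation antigen, and close to Rsad2 (0.89), an interferon-induced antiviral gene. Cxcl16 was nearest to Traf3ip3 (0.97) and Lilrb3 (0.96), and to its overlapping neighbour Zmynd15 (0.96). Cxcl9, which reached 1 FPKM in only 7 libraries, all of Stat6-/- replicate 2, was nearest to Prdx5 (0.91). Cxcl1 was nearest to Cacnb1 (0.86) and Slc43a2 (0.85). Cxcl2 was nearest to Arhgef10l (0.84), Spg20 (0.80) and Tifa (0.80). Pf4 was nearest to Cd5l (0.86) and close to Marco (0.82), both macrophage genes, while Cxcl14 (Rgs1, 0.75) and Cxcl3 (Glrx5, 0.70) had no partner above these values. Between members, r was 0.83 for Cxcl1 and Cxcl2, 0.78 for Cxcl10 and Cxcl16, 0.56 for Cxcl9 and Cxcl10 and -0.60 for Cxcl3 and Cxcl16.

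Several receptors were also called lower in WT. Of 9 genes in a list of CXC receptors and Cx3cr1, 4 were tested, and 1, 2, 2 and 2 were called lower at 1, 3, 6 and 24 h, with none higher, against the 0.395%, 1.27%, 2.36% and 4.58% of all loci called lower. Cxcr4, the receptor of Cxcl12, was at 71.2 ± 6.72 FPKM in controls and 15.5 ± 2.07 FPKM with IL-4 at 1 h (SD, n = 4 each), a log2 difference of -2.13 (adjusted p 9.82e-08). It was still called at 24 h (-1.29, adjusted p 0.000311). Cx3cr1, the fractalkine receptor, was called at 3 h (-1.73) and 6 h (-2.58). Cxcr3, the receptor of Cxcl9 and Cxcl10, went from 3.48 ± 0.235 FPKM (n = 4) to 0.278 ± 0.0445 FPKM (n = 3) at 24 h (-1.81, adjusted p 1.84e-08). Cxcr2, the receptor of Cxcl1, Cxcl2 and Cxcl3, was at 1.01 ± 0.156 FPKM with IL-4 and 0.405 ± 0.0694 FPKM in controls at 6 h (SD, n = 4 each), and was higher by 0.51 (adjusted p 5.04e-05), which is under 2-fold. Of 9 other CXC and related ligands, 8 were in the files and 1, Ppbp, was tested and not called, with a log2 difference of -0.26 at 24 h (adjusted p 0.18). Their sum was 0.687 to 3.70 FPKM.

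Lists of NF-kB signalling, interferon signalling and mRNA decay genes were also examined. They hold regulators as well as induced genes such as Rsad2. Up to 6 h calls went in both directions, and the calls given for 24 h were decreases. For these lists, 1.09%, 2.61% and 3.18% of all loci were called higher at 1, 3 and 6 h, and the shares called lower were those given for the receptors. Of 22 NF-kB signalling genes 20 were tested. Rel, an NF-kB subunit, was the 1 called higher at 1, 3 and 6 h (2.12, 1.47 and 1.25). Called lower were 3 at 1 h (Bcl3, Nfkbiz and Tnf), 3 at 3 h (Il1b, Nfkbiz and Tnf), 1 at 6 h (Nfkbiz) and 5 at 24 h (Bcl3, Il1b, Nfkb2, Nfkbiz and Relb). The 1 gene of 20 at 6 h is near the background share. Nfkbiz, which encodes the NF-kB cofactor IkB-zeta, was at 20.9 ± 1.83 FPKM in 3 h controls and 1.64 ± 0.147 FPKM with IL-4 (SD, n = 4 each), a log2 difference of -3.05 (adjusted p 5.41e-08). The list's median at 24 h was -0.27, against -0.07 over all loci. Of 21 interferon signalling genes 19 were tested, and none was called at 1 or 3 h. At 6 h, Irf1 was called higher (1.17) and Ifit1, Ifit3 and Rsad2 lower (-1.73, -2.46 and -2.05). At 24 h 10 were called lower, among them Irf7 (-2.43, adjusted p 0.0209), with a list median of -1.05.

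The mRNAs of Cxcl1, Cxcl2 and Cxcl3 were rich in the pentamer ATTTA, the core of the AU-rich elements that mark cytokine mRNAs for decay. In the 3′ untranslated regions, Cxcl1 held 7 (11.8 per kb), Cxcl2 held 11 (7.36 per kb), Cxcl3 held 5 (7.75 per kb) and Pf4 held 1 in 123 bases (8.13 per kb). Of 10083 tested genes with an annotated region, 0.575%, 2.25%, 1.81% and 1.55% were at or above these densities, and the median was 1.30 per kb. For Pf4 the density and its rank rest on 1 copy in a short region. Cxcl10 (3.01 per kb), Cxcl16 (1.41) and Cxcl9 (1.22) lay nearer to the median, and Cxcl14 held none, as did 30.6% of genes. Of 8 genes of AU-rich mRNA decay, Zc3h12a, an RNase that degrades inflammatory mRNAs, was called higher at 1 h (1.55) and Zfp36l2, a decay-promoting binding protein, lower (-2.06). Zfp36l1, its relative, was called higher at 3 and 6 h (1.36 and 1.31), and none of the 8 was called at 24 h. In Stat6-/-, 0% of all loci were called in the mean of the 4 times, so no gene of the lists above could be among them.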

How the data were processed

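The authors mapped paired-end RNA-seq reads of polyadenylated RNA to mm10 with TopHat2 (2.0.7) and deposited 1 table of FPKM values per library, computed with Cufflinks (2.0.2) per the labels. The gene annotation and strand setting are not given in the sources used here. FPKM values are not counts, and absolute depth is unknown. Relative depth was recovered from the smallest steps of low loci. Tables were joined on locus and symbol.

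The 11146 loci that reached 1 FPKM in any library were analysed as log2(FPKM + 1) in limma 3.58.1 (R 4.3.3), with 1 mean for each of the 18 groups and 35 residual degrees of freedom. P-values were two-sided and adjusted by the Benjamini-Hochberg method over loci within each contrast. The script was tested on simulated data. Called means an adjusted p below 0.05 and at least 2-fold. Groups and replicate numbers came from the labels, which do not tie the numbers to animals, so p-values measure the spread between these libraries. Same-numbered Stat6-/- libraries of IL-4 and control deviated together (r of 0.791 to 0.900 in 8 pairs), and the replicate block is given where it changed a call there. With 2 libraries in a group the deviations mirror each other, so both pairs of a time give the same r. Counts of pairs take in the same replicate numbers at several times and are descriptions. The text names all 8 chemokines, called members and single genes of the lists, and up to 3 loci nearest in pattern to each chemokine. The members and lists were chosen with earlier results of these data known. Alternatives were other pseudocounts, filters, scalings, a replicate block, Tukey's adjustment, a fit on the compared groups and leaving out each library or replicate number. Promoters came from RefSeq, and overlaps and untranslated regions from GENCODE.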

Additional observations from a re-analysis of the deposited data

Results flagged for a closer look

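The highest of 4 libraries stood apart from the rest in 2 of 64 group tests by Dixon's criterion, which chance meets in about 1 of 20. Cxcl1 in WT with IL-4 at 1 h was at 0.157 FPKM in replicate 1 and at 0.0614 to 0.0775 FPKM in the others. Cxcl3 in WT with IL-4 at 1 h was at 0.637 FPKM in replicate 3, the highest value of that gene in any library, and at no more than 0.183 FPKM in the others.

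By the interaction test in limma, WT and Stat6-/- differed in the IL-4 response of Cxcl10 at 3 h (-3.14), 6 h (-3.43) and 24 h (-3.73), all as log2 differences. At 24 h it also differed for Cxcl16 (-2.32), Cxcl2 (-2.23) and Pf4 (-1.36). The response was the lower in WT in each.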

How the results depend on the processing

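With 2 libraries in each Stat6-/- group and no absolute depth, values near 0 FPKM and genotype differences are the least certain, and a lone Stat6-/- library left by a leave-out was assumed to vary like the other groups. The number of chemokines called moved by over 1.5 times in 15 settings that kept all libraries, and by less in 227. In WT at 1 h it was 2 with a pseudocount of 0.1, with the filter or, a setting chosen after seeing the data, without it. The WT minus Stat6-/- response gave 2 at 1 h with the replicate block and 1 with only the groups compared. At 3 h it gave 2 with a pseudocount of 0.1, quantile normalization, median scaling or the replicate block, and 0 with only the groups compared. Median scaling gave 0 for Stat6-/- against WT controls, where Cxcl10 was at -0.9965, and brought the Pf4 change from 6 to 24 h to -0.96. Stat6-/- controls at 24 h gave 1 with a pseudocount of 0.1 and 2 with the replicate block. Both of these counts hold Cxcl9, which passed the filter through Stat6-/- replicate 2. The WT response from 1 to 3 h gave 1 with the block and 1 with only the groups compared. Leaving out 1 library or replicate number gave 0 to 1, 2 to 2, 1 to 2 and 4 to 4 calls in WT at 1, 3, 6 and 24 h, and 0 to 1, 0 to 2, 0 to 1 and 4 to 4 for the genotype difference. It gave 0 to 1 for the Stat6-/- response, for Stat6-/- against WT controls at each time and in the mean, for WT controls at 24 h and for Stat6-/- controls at 6 h, 0 to 3 for Stat6-/- controls at 24 h and 1 to 4 for the WT response from 6 to 24 h. The difference of Cxcl9 between control genotypes, 0.66 with all libraries, ranged from -0.0505 (without Stat6-/- replicate 2) to 1.36 (without replicate 1). With the block, Cxcl10 was the gene called from 1 to 3 h (-1.43, adjusted p 0.00404). The cause of these changes was not tested. Same-numbered WT libraries of IL-4 and control deviated together with r of 0.027 to 0.561 in 15 pairs, 13 of them over 0.1, which leaves the pairing of WT unsettled. Tukey's adjustment was not run for the genotype difference, and no replicate block could be made for Stat6-/- against WT controls, where the numbers are nested in genotype.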
